A study of Mus musculus with 12 samples.

Results

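The genes of the proteasome, the protease that degrades ubiquitin-tagged proteins, were followed in mouse liver. Members were taken by symbol, as every gene annotated on the array that begins with Psma, Psmb, Psmc, Psmd, Psme, Psmf or Psmg, with the brightest probe standing for each gene. The rule found 47 of the 17742 named genes, on 51 probes. They comprised 7 genes of the alpha ring, 6 constitutive and 4 inducible genes of the beta rings, 6 ATPases and 11 other subunits of the 19S regulatory particle, 5 activators and inhibitors, and 7 assembly chaperones. The remaining gene, Psmc3ip, matched only because it is named for its interaction with Psmc3, and it acts in meiotic recombination. The 4 genes counted as inducible are Psmb8, Psmb9, Psmb10 and the thymus-specific Psmb11. Psma3, Psmb3 and Psme2b were not analysed here.

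Liver RNA was hybridised to 12 one-colour arrays, 2 arrays for each of 2 samples in each of 3 groups. STZ+MENS mice received STZ, a toxin that destroys insulin-producing cells and is used to induce diabetes, followed by MENS delivered through a printed circuit board for 1 h on each of 5 days a week over 6 weeks. STZ mice received the toxin without MENS, and control mice received no treatment. All groups are labelled with an age of 8 weeks, and whether this is the age at the start or at sampling is not stated. The labels used here name neither strain nor sex, and do not state that each sample is a single animal. The p-values below therefore measure the spread between these samples, which may be technical.

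The proteasome core is a barrel of stacked rings, in which alpha subunits form the gate and the beta subunits Psmb5, Psmb6 and Psmb7 carry the proteolytic sites. Interferon induces Psmb8, Psmb9 and Psmb10, which replace them in newly assembled barrels to form the immunoproteasome. The 19S particle binds tagged proteins, removes the ubiquitin and unfolds the chain with its ATPase ring. Other caps, such as the Psme1 and Psme2 complex, open the gate without needing ubiquitin. NFE2L1 is a transcription factor that raises proteasome subunit genes together when proteasome activity falls, and its relative NFE2L2 acts on some of them under oxidative stress. Both bind antioxidant response elements.

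RefSeq promoters on GRCm38.p6 were available for 39 of the 47 members, as 42 windows of 300 bases around the transcription start. Both strands were searched for the antioxidant response element TGACNNNGC, the interferon response element and the gamma-activated site TTCNNNGAA bound by STAT factors. The antioxidant response element was present in 6 of the 42 windows (14.3%) and in 12.4% of all 32851 promoter windows. It was found at Psmb5, Psmb6, Psmc6, Psmd9, Psmd12 and Psme4. An interferon response element was in 4 member windows (9.5%, at Psmd4, Psmd9, Psme1 and Psmg4) and in 3.44% of all windows. A gamma-activated site was in 3 member windows (7.1%, at Psmb8, Psmd2 and Psmg1) and in 8.3% of all windows. A match describes letters only.

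The 250 bases before the start site are shown for a selection of members whose match lies inside them, in gene orientation, with the match in capitals. Capitals mark the antioxidant response element in the first 4 and the gamma-activated site in Psmb8. The first 4 all stood lower in STZ+MENS than in STZ, with overlapping groups for Psmb6, and Psmd9, which did not, is not shown. The shared direction of these 4 therefore follows in part from which members are shown. The intervals are chr14:45329574-45329823 on the plus strand for Psmc6, chr11:107479278-107479527 on the plus strand for Psmd12, chr14:54617996-54618245 on the minus strand for Psmb5, chr11:70525107-70525356 on the plus strand for Psmb6 and chr17:34197945-34198194 on the plus strand for Psmb8.
Psmc6: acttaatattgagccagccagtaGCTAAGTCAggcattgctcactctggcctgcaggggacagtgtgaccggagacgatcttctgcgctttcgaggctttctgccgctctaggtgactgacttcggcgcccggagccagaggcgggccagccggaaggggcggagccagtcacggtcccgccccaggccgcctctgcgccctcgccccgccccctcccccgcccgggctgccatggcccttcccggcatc
Psmd12: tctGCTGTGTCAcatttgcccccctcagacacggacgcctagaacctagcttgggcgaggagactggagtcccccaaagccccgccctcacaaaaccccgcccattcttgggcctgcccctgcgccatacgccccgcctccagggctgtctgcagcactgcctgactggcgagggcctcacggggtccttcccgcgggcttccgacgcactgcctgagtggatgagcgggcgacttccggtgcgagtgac
Psmb5: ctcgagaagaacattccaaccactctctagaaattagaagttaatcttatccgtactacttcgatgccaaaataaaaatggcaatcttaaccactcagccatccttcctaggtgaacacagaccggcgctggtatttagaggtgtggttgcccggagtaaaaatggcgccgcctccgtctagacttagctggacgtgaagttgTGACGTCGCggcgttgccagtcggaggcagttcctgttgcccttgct
Psmb6: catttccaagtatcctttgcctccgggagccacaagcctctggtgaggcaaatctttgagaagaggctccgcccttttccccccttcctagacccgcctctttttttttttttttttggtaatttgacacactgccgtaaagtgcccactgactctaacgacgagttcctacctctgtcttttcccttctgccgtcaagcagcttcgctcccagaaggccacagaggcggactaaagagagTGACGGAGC
Psmb8: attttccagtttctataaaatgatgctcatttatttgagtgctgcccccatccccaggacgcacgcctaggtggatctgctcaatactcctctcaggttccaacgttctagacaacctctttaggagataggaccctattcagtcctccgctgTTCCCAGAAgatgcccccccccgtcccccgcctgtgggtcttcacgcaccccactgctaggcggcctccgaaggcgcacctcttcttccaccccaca
The element began 227 bases before the start in Psmc6, 247 in Psmd12, 47 in Psmb5 and 9 in Psmb6. In Psme4 it began 7 bases before the start and ran past it. The gamma-activated site of Psmb8 began 97 bases before the start.

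Values are log2(intensity + 50), averaged over the 2 arrays of a sample. The deposited arrays had nearly equal medians, between 768.89 and 770.33. The hepatocyte genes were bright in all samples, with Apoa1 between 18.66 and 19.02 on a scale ending at 19.13, and none of the 8 measured hepatocyte markers lay under an intensity of 50. Of their 8 differences between STZ+MENS and STZ, 5 were positive and 3 negative. At an unadjusted limma p under 0.05, 1 was lower and 0 higher, where 12.8% of all genes were lower and 12.6% higher. The lower gene was Cps1, a urea cycle enzyme, and it was not called (limma adjusted p = 0.17). Cps1 read 14.67 and 16.15 in STZ+MENS livers, 16.94 and 16.42 in STZ livers, and 17.09 and 16.67 in control livers. It was lowest in STZ+MENS sample 1, and any part of this in the proteasome values was not tested. Of the members, 3 were dim, with a mean intensity under 300. These were Psma5, Psme2 and Psmf1, and Psma5 averaged only 21. In bulk tissue, fewer cells of a type and less RNA per cell cannot be told apart.

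A pair of samples stood apart for the proteasome genes. STZ+MENS sample 1 was the lowest of the 6 samples for 22 members (46.8%), against 20.8% of all genes. STZ sample 1 was the highest for 19 members (40.4%), against 18.9% of all genes. The 2 arrays of STZ+MENS sample 2 differed by a median of 0.37 across members, against 0.20 across all genes. In the other samples the members' median gap was between 0.05 and 0.15. In STZ+MENS sample 2, 18 members differed by over 0.5 between arrays. Psmg1, an assembly chaperone, had the widest gap, reading 12.75 on one array and 13.77 on the other.

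**Figure D1:**
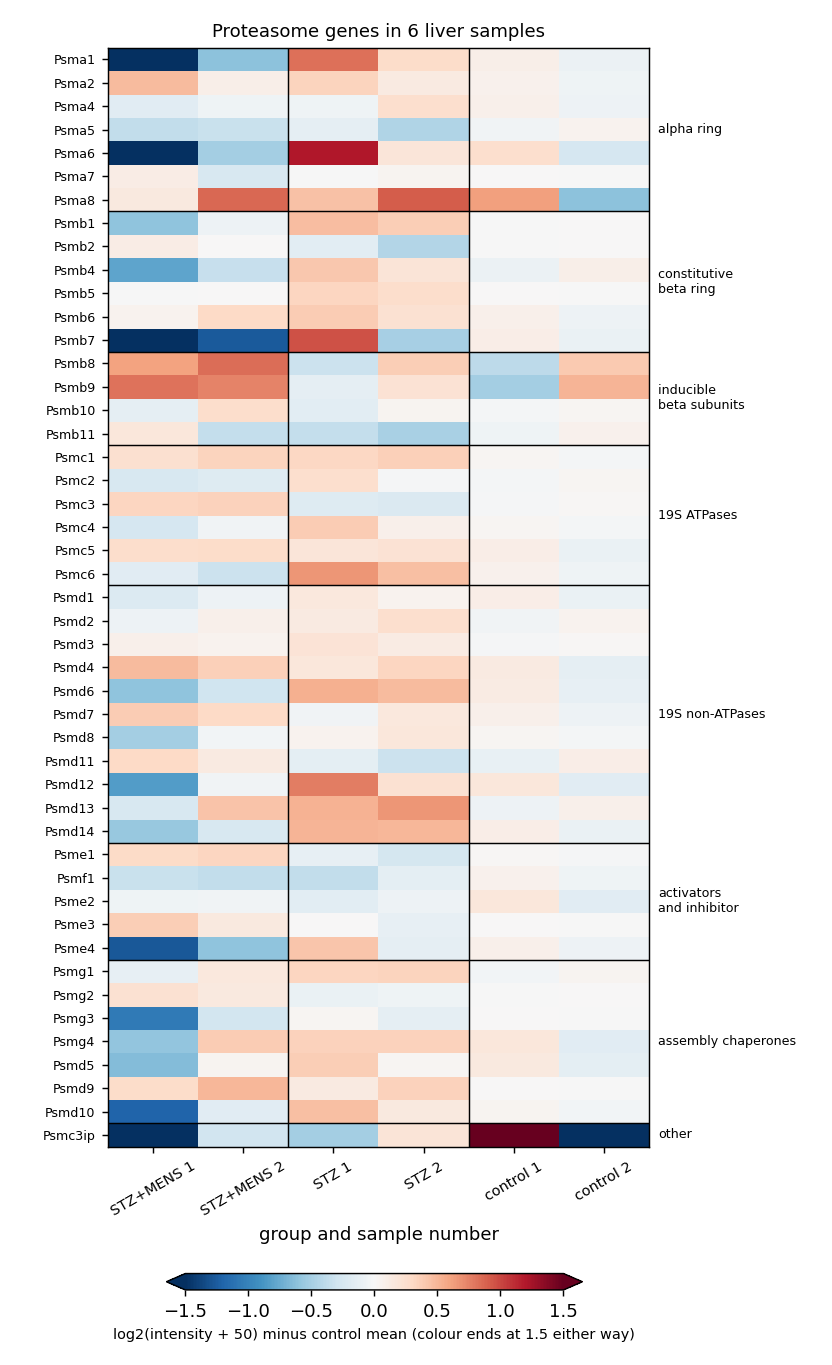
Each row is a proteasome gene and each column a liver sample, coloured by log2(intensity + 50) minus the control mean. STZ+MENS sample 1 is the lowest of the 6 samples for 22 genes and STZ sample 1 the highest for 19.

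The first comparison, STZ+MENS against STZ, asks what MENS altered in diabetic liver. Most constitutive core and 19S genes stood lower in STZ+MENS livers, while the inducible beta genes stood higher, and no member passed the test. Differences were fitted with limma and adjusted over all 17742 genes, and a gene was called at an adjusted p under 0.05. No gene of the array was called (0.0% of all genes), and the lowest adjusted p among members was 0.060 (Psmd6, limma). The members' median difference was -0.20, against 0.06 over all genes, with 16 members positive and 31 negative.

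At an unadjusted p under 0.05, limma counted 11 members lower (23.4%), where 12.8% of all genes were lower, and 3 higher (6.38%), where 12.6% of all genes were higher. In either direction that was 14 members, beside 25.4% of all genes. Both STZ+MENS samples lay below both STZ samples for 22 members (46.8%), against 23.9% of all genes, and above them for 13 (27.7%), against 34.0%. These counts describe the members and are not a test of the group.

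**Figure D2:**
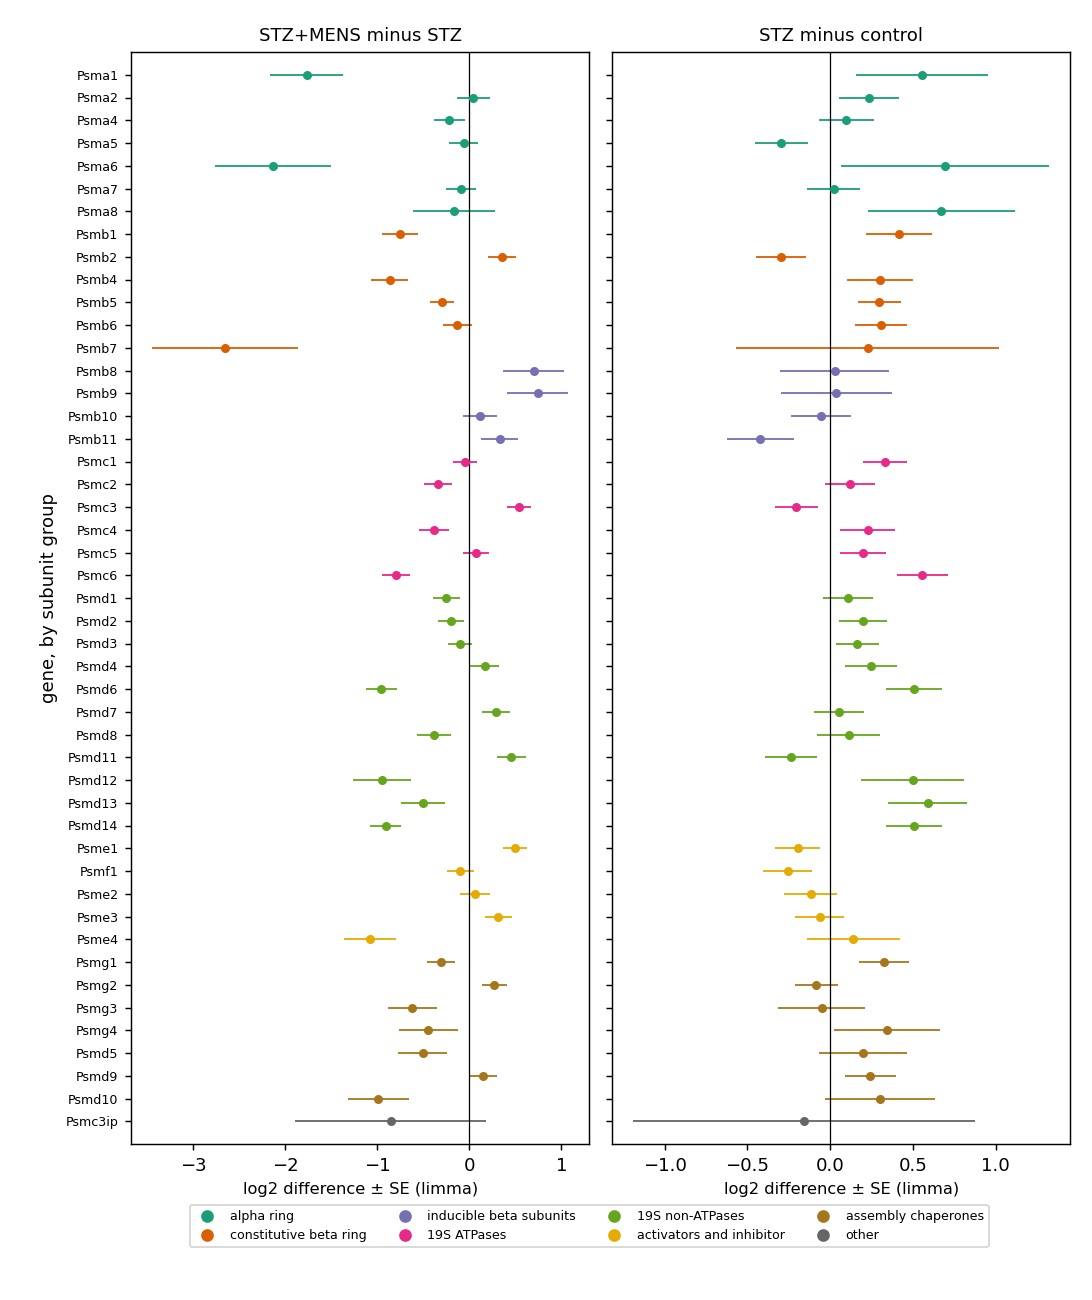
Points are the log2 difference of each proteasome gene and bars its SE from limma, for STZ+MENS minus STZ (left) and STZ minus control (right), coloured by subunit group. The left median is -0.20 and the right 0.20, and the x axes differ in length.

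In the alpha ring, 6 of 7 differences between STZ+MENS and STZ were negative, and the 7 had a median of -0.17. Psma1 read 11.18 and 12.38 in STZ+MENS livers, 13.82 and 13.28 in STZ livers, and 13.09 and 12.90 in control livers. The difference from STZ was -1.77 ± 0.40 (SE, 2 samples a group), a 3.40-fold lower intensity (limma adjusted p = 0.075). Both STZ+MENS samples lay below all 4 others. Psma6 read 10.65 and 12.50 in STZ+MENS livers, 14.22 and 13.20 in STZ livers, and 13.26 and 12.76 in control livers. It differed by -2.13 ± 0.63 (limma adjusted p = 0.12). The STZ+MENS sample means were lowest for Psma6 too, and differed widely from each other (SD 1.31). In STZ+MENS sample 2 its arrays read 12.13 and 12.87, and the higher lay above control sample 2. The other 5 alpha genes lay within 0.21 of STZ in either direction. Psma4 had the lowest of these differences, -0.21 ± 0.17, and Psma2, also of the ring, the highest, 0.04 ± 0.18. Psma8, the alpha subunit of the testis proteasome, differed by -0.17 ± 0.44.

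The constitutive beta genes had a median difference of -0.52, with 5 of 6 negative. Psmb4, a non-catalytic subunit that links the rings during assembly, read 15.88 and 16.33 in STZ+MENS livers, 17.07 and 16.86 in STZ livers, and 16.57 and 16.76 in control livers. Its difference from STZ was -0.87 ± 0.20 (limma adjusted p = 0.076). Psmb1, also non-catalytic, read 15.02 and 15.55 in STZ+MENS livers, 16.08 and 15.99 in STZ livers, and 15.61 and 15.63 in control livers. For both genes the STZ+MENS sample means lay below all others. For Psmb4 the arrays of STZ+MENS sample 2 read 16.63 and 16.02, and the higher lay above control sample 1. The 2 probes of Psmb1 gave -0.75 and -0.44. Psmb2 was the exception, at 14.97 and 14.88 in STZ+MENS livers, against 14.71 and 14.43 in STZ livers, a difference of 0.35 ± 0.15 (limma adjusted p = 0.21). Its arrays in STZ+MENS sample 2 read 14.59 and 15.16, and the lower lay under STZ sample 1.

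**Figure D3:**
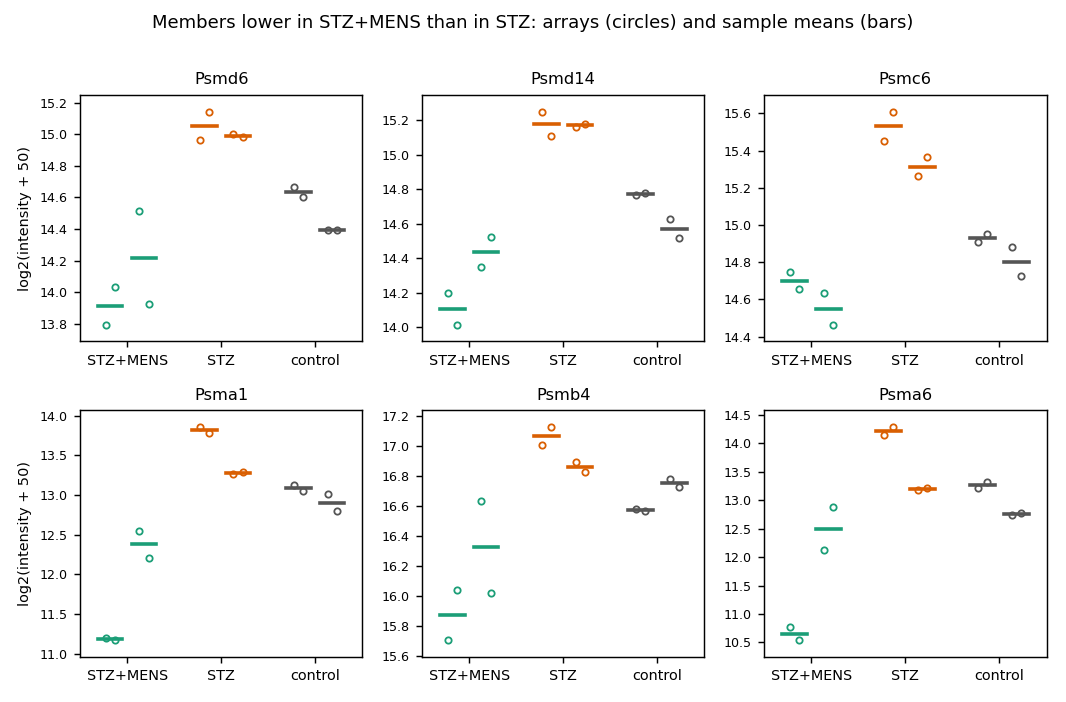
The y axis of each panel is log2(intensity + 50), circles are single arrays and bars are sample means, for 6 genes that stood lower in STZ+MENS. Sample means of both STZ+MENS livers lie below those of both STZ and both control livers in every panel.

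The 3 catalytic subunits differed from STZ by unlike amounts. Psmb7, which carries the trypsin-like site, read 8.80 and 11.13 in STZ+MENS livers, 13.35 and 11.90 in STZ livers, and 12.50 and 12.29 in control livers. The difference from STZ was -2.65 ± 0.79, or 6.30-fold lower (limma adjusted p = 0.12), and the STZ+MENS samples differed widely from each other (SD 1.65). Psmb5, which carries the chymotrypsin-like site, read 14.42 and 14.43 in STZ+MENS livers, 14.75 and 14.69 in STZ livers, and 14.43 and 14.41 in control livers. STZ+MENS samples lay on the control values, below both STZ samples, at a difference of -0.29 ± 0.13 (limma adjusted p = 0.22). Psmb6, which carries the caspase-like site, read 15.69 and 15.93 in STZ+MENS livers, 16.01 and 15.86 in STZ livers, and 15.71 and 15.55 in control livers. Its groups overlapped, with a difference from STZ of -0.13 ± 0.16.

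All 4 genes counted as inducible, Psmb11 included, had a positive difference between STZ+MENS and STZ, with a median of 0.52. Over the whole array 10012 of 17742 genes were positive. None of the 4 had an unadjusted limma p under 0.05, where 12.6% of all genes were higher. Psmb8, the inducible counterpart of Psmb5, read 15.57 and 15.80 in STZ+MENS livers, 14.64 and 15.33 in STZ livers, and 14.57 and 15.34 in control livers. Both STZ+MENS samples lay above the other 4, at 0.70 ± 0.33 over STZ (limma adjusted p = 0.24). Psmb9, the counterpart of Psmb6, read 14.76 and 14.68 in STZ+MENS livers, 13.80 and 14.15 in STZ livers, and 13.43 and 14.45 in control livers. The difference from STZ was 0.74 ± 0.33 (limma adjusted p = 0.23). For Psmb9 the STZ+MENS sample means were highest, but in STZ+MENS sample 2 the arrays read 14.28 and 15.08, and the lower lay under control sample 2. For both genes the 2 control samples differed more than the group means did.

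Psmb10, the counterpart of Psmb7, read 14.99 and 15.38 in STZ+MENS livers, 14.97 and 15.17 in STZ livers, and 15.10 and 15.15 in control livers, with overlapping groups. Psmb11, the thymus-specific subunit, read 9.88 and 9.35 in STZ+MENS livers, 9.35 and 9.22 in STZ livers, and 9.64 and 9.77 in control livers. The ratio of an inducible gene to its counterpart was set against the control mean of that ratio. For Psmb8 over Psmb5 its log2 change was 0.61 and 0.83 in STZ+MENS livers, -0.65 and 0.11 in STZ livers, and -0.40 and 0.40 in control livers. Both STZ+MENS samples thus had the highest ratio. For Psmb9 over Psmb6 it was 0.76 and 0.44 in STZ+MENS livers, -0.52 and -0.02 in STZ livers, and -0.59 and 0.59 in control livers, so STZ+MENS lay above STZ and overlapped control. For Psmb10 over Psmb7 it was 3.46 and 1.52 in STZ+MENS livers, -1.11 and 0.54 in STZ livers, and -0.13 and 0.13 in control livers, and most of this came from Psmb7. The ratios are a description and were not tested.

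**Figure D4:**
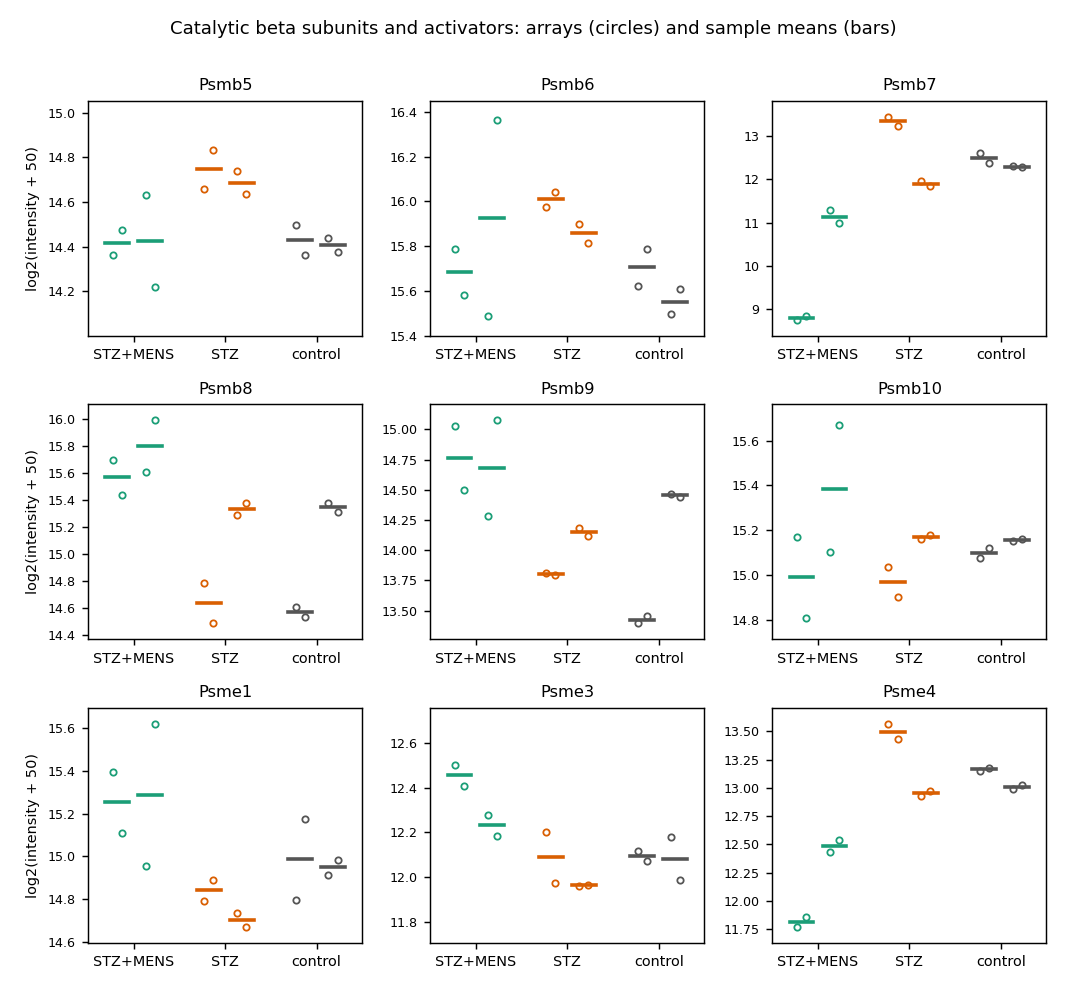
The y axis of each panel is log2(intensity + 50), circles are arrays and bars are sample means, for constitutive catalytic genes (top), inducible counterparts (middle) and activators (bottom). Psmb8 is highest in both STZ+MENS samples, at 15.57 and 15.80, while Psmb7 and Psme4 are lowest there.

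Among the 19S ATPases, which unfold the substrate, Psmc6 and Psmc3 went opposite ways. Psmc6 read 14.70 and 14.55 in STZ+MENS livers, 15.53 and 15.31 in STZ livers, and 14.93 and 14.80 in control livers. The difference from STZ was -0.80 ± 0.15 (limma adjusted p = 0.065), with STZ+MENS below all other samples. Psmc3 read 14.11 and 14.14 in STZ+MENS livers, 13.59 and 13.58 in STZ livers, and 13.77 and 13.80 in control livers. The difference was 0.54 ± 0.13 (limma adjusted p = 0.082), with STZ+MENS above all other samples. Psmc2 and Psmc4 differed by -0.34 ± 0.15 and -0.38 ± 0.17. Psmc1 and Psmc5 differed by -0.04 ± 0.13 and 0.07 ± 0.14.

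Of the 11 other 19S subunits, 8 stood lower and 3 higher in STZ+MENS than in STZ, with a median of -0.25. Psmd6, a lid subunit, read 13.91 and 14.22 in STZ+MENS livers, 15.05 and 14.99 in STZ livers, and 14.64 and 14.40 in control livers. The difference was -0.96 ± 0.17, or 1.94-fold lower (limma adjusted p = 0.060). Psmd14, the lid enzyme that removes ubiquitin from the substrate, read 14.10 and 14.44 in STZ+MENS livers, 15.18 and 15.17 in STZ livers, and 14.77 and 14.57 in control livers. Its difference was -0.91 ± 0.17 (limma adjusted p = 0.063). For both lid genes the sample means of the 3 groups did not overlap, with STZ+MENS lowest and STZ highest. For Psmd6 the arrays of STZ+MENS sample 2 read 14.51 and 13.93, and the higher lay above control sample 2. Psmd12, a lid subunit, read 12.55 and 13.33 in STZ+MENS livers, 14.15 and 13.61 in STZ livers, and 13.55 and 13.21 in control livers. Its STZ+MENS samples lay below STZ, at -0.95 ± 0.31, and overlapped control.

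Psmd11, a lid subunit that stabilises the particle, stood the other way, at 11.93 and 11.77 in STZ+MENS livers, 11.48 and 11.30 in STZ livers, and 11.52 and 11.73 in control livers. The difference from STZ was 0.46 ± 0.16 (limma adjusted p = 0.15). Psmd7, also of the lid, and Psmd4, a ubiquitin receptor, differed by 0.29 ± 0.15 and 0.17 ± 0.16. For Psmd7 the arrays of STZ+MENS sample 2 read 14.47 and 15.19, and the lower lay under both STZ samples. Psmd13 differed by -0.50 ± 0.24. The scaffold subunits Psmd1 and Psmd2 differed by -0.25 ± 0.15 and -0.20 ± 0.14. The 2 probes of Psmd8 disagreed, with -0.38 for the brighter and 0.07 for the other.

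The activators split. Psme1, a subunit of the interferon-inducible cap, read 15.25 and 15.29 in STZ+MENS livers, 14.84 and 14.70 in STZ livers, and 14.99 and 14.95 in control livers. The difference from STZ was 0.50 ± 0.14 (limma adjusted p = 0.099), with STZ+MENS sample means above all others. The arrays of STZ+MENS sample 2 read 14.96 and 15.62, and the lower lay under control sample 1. Psme4, a cap with a single large chain, read 11.81 and 12.48 in STZ+MENS livers, 13.50 and 12.95 in STZ livers, and 13.16 and 13.01 in control livers. Its difference was -1.08 ± 0.28, or 2.11-fold lower (limma adjusted p = 0.094), with STZ+MENS below all other samples. Psme3, the nuclear relative of Psme1, read 12.46 and 12.23 in STZ+MENS livers, 12.09 and 11.96 in STZ livers, and 12.09 and 12.08 in control livers. The dim probes of Psme2, the partner of Psme1, and of the inhibitor Psmf1 differed by 0.06 ± 0.16 and -0.10 ± 0.15.

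The assembly chaperones had a median of -0.45, with 5 of 7 negative, and the 2 STZ+MENS samples often disagreed. Psmd10, which guides ATPase assembly, read 11.10 and 12.13 in STZ+MENS livers, 12.76 and 12.45 in STZ livers, and 12.34 and 12.26 in control livers. Its 2 probes gave -0.99 and -1.45 against STZ. On the brighter probe the arrays of STZ+MENS sample 2 read 11.76 and 12.50, and the higher lay above STZ sample 2. Psmg3 read 13.42 and 14.21 in STZ+MENS livers, 14.51 and 14.35 in STZ livers, and 14.49 and 14.47 in control livers. Psmg4, its partner in alpha ring assembly, read 12.26 and 13.23 in STZ+MENS livers, 13.20 and 13.19 in STZ livers, and 13.02 and 12.68 in control livers. For these genes the low value was in sample 1, and Psmg4 in sample 2 lay on the STZ level. Psmc3ip read 7.68 and 9.13 in STZ+MENS livers, 8.90 and 9.61 in STZ livers, and 11.03 and 7.80 in control livers, a wider spread between control samples than between any group means.

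The second comparison, STZ against control, asks what differed in mice given STZ. Effects of the toxin itself and of diabetes cannot be told apart in it. Constitutive core and 19S genes mostly stood higher in STZ livers, by small amounts, and no member was called. The members' median was 0.20, against -0.02 over all genes, with 34 positive and 13 negative. Of all genes 0.00564% were called, and the lowest adjusted p of a member was 0.18 (Psmc6, limma). At an unadjusted p under 0.05, limma counted 5 members higher (10.6%), where 8.48% of all genes were higher, and 0 lower, where 8.49% were lower. In either direction 17.0% of all genes were counted. Both STZ samples lay above both control samples for 22 members (46.8%), against 24.0% of all genes, and below them for 8 (17.0%), against 28.2%. The STZ samples enter both this comparison and the first, so opposite signs in the 2 are not independent. Markers of cholangiocytes, the bile duct cells, also stood higher in STZ livers, with 7 of 7 differences from control positive and 3 (Krt19, Tspan8 and Anxa13) at an unadjusted limma p under 0.05. They summed to an intensity of 25368 and 19777 in STZ livers and 16542 and 16097 in control livers. These sums mostly follow Spp1, which averaged 14029 and differed by 0.36 ± 0.29 between STZ and control. Krt19, Tspan8 and Anxa13 averaged only 689, 687 and 697. Between STZ+MENS and STZ, 6 of these 7 differences were negative. None of these markers lay under an intensity of 50, and their part in the proteasome values was not tested.

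The 5 higher members were Psmc1, Psmc6, Psmd6, Psmd13 and Psmd14, all of the 19S particle. Psmc6 differed by 0.56 ± 0.15, Psmd6 by 0.51 ± 0.17 and Psmd14 by 0.50 ± 0.17. Psmd13, a lid subunit, read 15.77 and 15.91 in STZ livers and 15.18 and 15.33 in control livers. Psmc1 read 15.91 and 15.95 in STZ livers and 15.62 and 15.57 in control livers. In all 5, which were picked by p, both STZ samples lay above both control samples, as for 24.0% of all genes. The constitutive beta genes had a median of 0.30 and the alpha ring 0.24. The inducible beta genes had a median of -0.01, and for Psmb8 and Psmb9 the STZ and control samples overlapped.

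The lowest differences between STZ and control by p were those of Psmb11, Psmb2, Psma5, Psmf1 and Psmc3. Psmb2 differed by -0.30 ± 0.15 and Psmc3 by -0.20 ± 0.13. Psmb11 differed by -0.42 ± 0.20, and the dim probes of Psma5 and Psmf1 by -0.30 ± 0.16 and -0.26 ± 0.15. The Psma5 value depended on the offset, at -0.61 with an offset of 16 and -0.09 with 200. In each of these 5, which were picked by p, both STZ samples lay below both control samples, as for 28.2% of all genes. Their limma adjusted p-values were between 0.36 and 0.48.

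Set against control, STZ+MENS livers showed members on both sides. The median was -0.07, against 0.02 over all genes, with 22 positive and 25 negative, and the lowest adjusted p was 0.18 (Psme4, limma), where 0.00564% of all genes were called. At an unadjusted p under 0.05, limma counted 3 members higher (6.38%), where 8.82% of all genes were higher, and 6 lower (12.8%), where 9.18% were lower. In either direction 18.0% of all genes were counted. Both STZ+MENS samples lay on the same side of both control samples for 30 members (63.8%), against 48.6% of all genes. The 6 lower members were Psma1, Psmb4, Psmb7, Psmd6, Psme4 and Psmg3, with differences between -0.45 and -2.43. Without STZ+MENS sample 1 the members' median against control was 0.0069, and without STZ+MENS sample 2 it was -0.14. Over all genes the medians were 0.011 and 0.030.

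The 3 members counted higher than control were Psmc3, Psmd4 and Psmd9. Psmd4 read 16.74 and 16.62 in STZ+MENS livers, 16.44 and 16.59 in STZ livers, and 16.40 and 16.14 in control livers. Psmd9, a chaperone of ATPase assembly, read 11.27 and 11.50 in STZ+MENS livers, 11.13 and 11.34 in STZ livers, and 11.00 and 10.98 in control livers. The STZ+MENS samples lay above control for both, and by 0.41 ± 0.16 and 0.39 ± 0.16 on average. The inducible beta genes had a median of 0.39 over control, with Psmb8 at 0.73 ± 0.33 and Psmb9 at 0.78 ± 0.33 (limma adjusted p = 0.31 and 0.29).

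Genes of proteins that work with the proteasome but carry other symbols mostly stood lower in STZ+MENS than in STZ. Of 11 measured partners, 8 differences were negative and 3 positive, with a median of -0.30. Of 8 shuttle and p97 genes, which bring tagged proteins to the proteasome, 7 were negative and 1, Faf1, positive, with a median of -0.44. At an unadjusted limma p under 0.05, 5 partners and 4 shuttle and p97 genes were lower and 0 of either list higher, where 12.8% of all genes were lower and 12.6% higher. None was called. Ubqln2, a shuttle, read 12.63 and 13.01 in STZ+MENS livers, 14.45 and 14.42 in STZ livers, and 13.56 and 13.65 in control livers. Rad23b, another shuttle, read 12.66 and 13.75 in STZ+MENS livers, 14.65 and 14.35 in STZ livers, and 13.90 and 14.07 in control livers. For both the STZ+MENS samples were lowest and the STZ samples highest. Txnl1, a thioredoxin bound to the 19S particle, read 10.15 and 10.07 in STZ+MENS livers, 11.53 and 11.52 in STZ livers, and 11.09 and 10.98 in control livers (limma adjusted p = 0.057 against STZ). Zfand2a, a stress-induced partner of the 19S particle, read 11.89 and 12.18 in STZ+MENS livers, 12.89 and 12.82 in STZ livers, and 12.93 and 12.98 in control livers. Adrm1, a ubiquitin receptor of the particle, differed by 0.00 ± 0.14 between STZ+MENS and STZ. The 5 genes listed for ubiquitin and its activating enzyme were not measured here.

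The transcription factors named above had unlike patterns. Nfe2l1 read 14.30 and 14.28 in STZ+MENS livers, 13.87 and 14.07 in STZ livers, and 14.37 and 14.26 in control livers. Nfe2l2 read 13.33 and 13.32 in STZ+MENS livers, 14.13 and 14.22 in STZ livers, and 12.94 and 12.97 in control livers. Nfe2l1 was thus lowest in STZ and Nfe2l2 highest there, and neither was called in any comparison. Of the 6 members with an antioxidant response element, Psmb5, Psmb6, Psmc6, Psmd12 and Psme4 stood lower in STZ+MENS than in STZ and Psmd9 did not. For Psmb6 the groups overlapped. Across all members 31 of 47 stood lower.

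**Figure D5:**
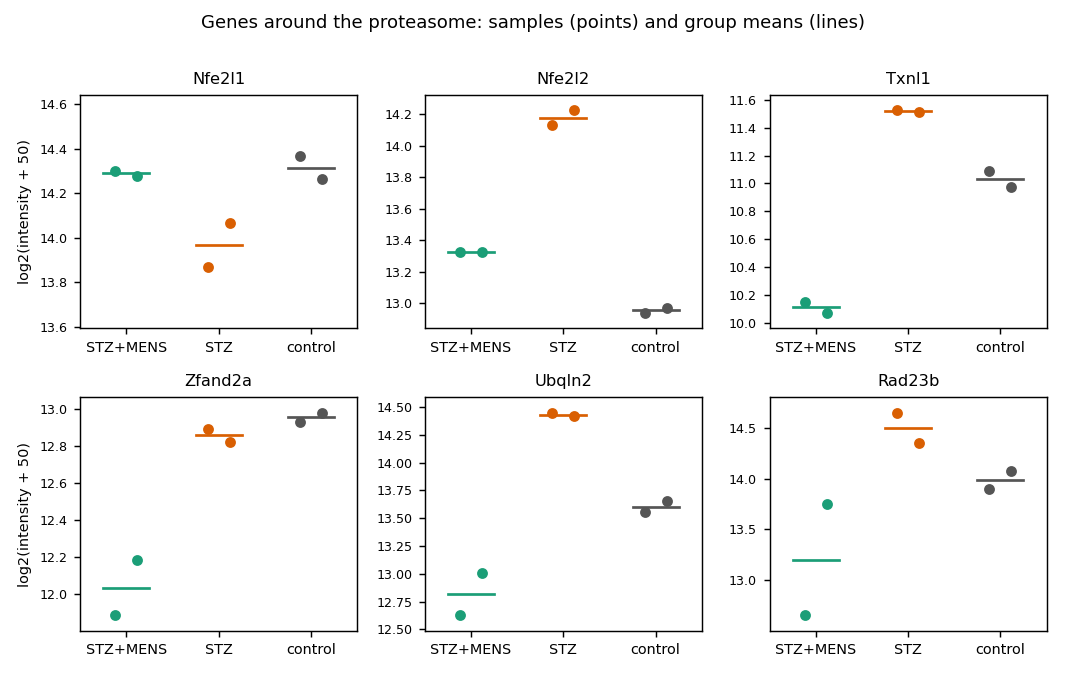
The y axis of each panel is log2(intensity + 50), points are samples and lines group means, for 2 transcription factors, 2 partners of the 19S particle and 2 ubiquitin shuttles. Ubqln2 and Rad23b are lowest in STZ+MENS, and Nfe2l2 is highest in STZ.

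Genes that act beside the immunoproteasome were set next to its subunits. In the class I antigen presentation list, 7 of 10 measured genes had a positive difference between STZ+MENS and STZ and 3 a negative one. At an unadjusted limma p under 0.05, 2 were higher and 0 lower, where 12.6% of all genes were higher and 12.8% lower. Calr, a chaperone of class I assembly, differed by 0.47 ± 0.16 (limma adjusted p = 0.15). Nlrc5, the activator of class I genes, read 11.73 and 12.52 in STZ+MENS livers, 11.37 and 10.74 in STZ livers, and 10.86 and 11.77 in control livers. Tap1, a peptide transporter, read 14.12 and 14.40 in STZ+MENS livers, 13.64 and 13.96 in STZ livers, and 13.13 and 14.17 in control livers. Control sample 1 was low and control sample 2 high for Tap1 and Nlrc5, as for Psmb8 and Psmb9. Of 13 interferon signalling genes, 3 were higher and 2 lower at the same unadjusted p, beside the same shares of all genes. The 3 higher were Irf8, at 0.73 ± 0.15, Ifnar2, at 0.67 ± 0.20, and Ifnar1, at 0.50 ± 0.15. The 2 lower were Jak2, at -0.76 ± 0.23, and Irf9, at -0.75 ± 0.30. The limma adjusted p-values of these 5 were between 0.068 and 0.19. Against control, Irf1 and Irf7 stood higher in both groups with STZ. Irf1 read 13.10 and 12.18 in STZ+MENS livers, 11.88 and 13.29 in STZ livers, and 10.81 and 9.37 in control livers. Irf7 read 14.27 and 16.23 in STZ+MENS livers, 14.84 and 15.59 in STZ livers, and 13.57 and 13.95 in control livers. Neither was called. Of the 13 differences between STZ and control, 6 were positive and 7 negative.

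Markers of leukocytes, which carry the immunoproteasome at rest, stood higher beside the inducible genes. All 12 measured leukocyte markers had a positive difference between STZ+MENS and STZ, between 0.08 and 0.89, with 2 of them (16.7%) at an unadjusted limma p under 0.05, beside 12.6% of all genes. Their summed intensity was 13070 and 11439 in STZ+MENS livers, 9944 and 10199 in STZ livers, and 13714 and 11847 in control livers. The sums in STZ+MENS and control livers overlapped. None of the markers lay under an intensity of 50, and their part in the values of Psmb8, Psmb9 and Psme1 was not tested. Markers of Kupffer cells, the liver macrophages, summed to 39228 and 62768 in STZ+MENS livers, 36263 and 36426 in STZ livers, and 41751 and 35039 in control livers. Of 8 Kupffer markers, 5 stood higher and 3 lower in STZ+MENS than in STZ. At an unadjusted limma p under 0.05, 1 was higher (Clec4f, 0.71 ± 0.16) and 1 lower (Adgre1, -0.44 ± 0.18). Their part was not tested either.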

How the data were processed

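Liver RNA of 6 samples was read on 12 arrays (Mouse OneArray, 1 colour). The deposited table holds the authors' intensity values per probe, which were nearly equal in distribution between arrays (sorted values beyond the dimmest differed by at most 6.3%). How the authors scaled them is not given in the sources used here. The submitters' processing notes name limma 3.30.7. Of 26423 probes, 20377 had a gene symbol, and symbols were updated through RefSeq for 2126. From the intensities, values below 0 were set to 0, 50 was added, log2 was taken and the 2 arrays of a sample were averaged. The brightest probe stood for a gene. One limma fit (version 3.58.1, R 4.3.3) covered the 3 groups, with Benjamini-Hochberg adjustment over 17742 genes, and the procedure was tested on simulated data. The 2 samples a group limit the precision. Named genes were drawn from the inducible beta genes and their counterparts, the activators and inhibitor, the 5 members with the lowest p in each direction of each comparison, members whose arrays differed by over 1, and 2 genes per list and comparison; others named in the text were chosen after their values were seen. Members and lists were chosen with earlier results of these data known. Alternatives were the offset, probe choice, a filter on dim genes, fits of 2 groups, the replicate block, single arrays, all arrays with the sample as a random block, and each sample left out.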

Additional observations from a re-analysis of the deposited data

How the results depend on the processing

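With 2 samples a group, counts at an unadjusted limma p under 0.05 moved with the setting. With all 12 arrays and the sample as a random block, adjusted calls among the 47 members were 2 for STZ against control, 12 for STZ+MENS against STZ and 3 for STZ+MENS against control, where 6.79%, 17.4% and 7.53% of all genes were called. For STZ against control, members higher (5) were 3 with an offset of 16, 3 on array 1 and 2 on array 2. Of all 17742 genes, 1506, 1179 and 1147 were higher in turn, and 1505 in the main fit. Members lower (0) were 1 with the offset of 16, the fit of 2 groups, the 12 arrays and array 1, where the median was 0.17. Of all genes, 1479, 1644, 2089 and 1291 were lower in turn, and 1507 in the main fit. For STZ+MENS against STZ, members higher (3) were 6 with an offset of 200, 6 with the 12 arrays and 5 with the replicate block. Of all genes, 2407, 3019 and 1874 were higher in turn, and 2244 in the main fit. For STZ+MENS against control, members higher (3) were 1 with the offset of 16 and 7 with 200. They were 0 in the fit of 2 groups, 5 with the 12 arrays, 0 on array 1 and 1 on array 2. Of all genes, 1518, 1724, 1381, 1967, 1211 and 1278 were higher in turn, and 1565 in the main fit. Members lower (6) were 10 on array 1, where 1559 of all genes were lower, against 1628 in the main fit. The cause was not tested. Counts over all genes also moved with the sample left out, and a compared group that lost a sample kept only 1. The leave-out counts of members below are therefore not read as specific to the proteasome. With 1 sample left out, medians over all genes were -0.0319 to -0.00337 for STZ against control. They were 0.0478 to 0.0614 for STZ+MENS against STZ and -0.00775 to 0.0425 for STZ+MENS against control. Leaving out 1 sample at a time gave, for STZ against control, 0 to 0 adjusted calls, 0 to 6 members higher, 0 to 1 lower and medians of 0.12 to 0.22. For STZ+MENS against STZ it gave 0 to 13 adjusted calls, 2 to 5 higher, 7 to 17 lower and medians of -0.28 to -0.13. The 13 calls came without STZ+MENS sample 2, where 9.91% of all genes were called. For STZ+MENS against control it gave 0 to 0 adjusted calls, 0 to 2 higher, 0 to 14 lower and medians of -0.14 to 0.0069. Signs turned for Psme2 on array 1 (-0.058), and on array 2 for Psmf1 (0.073) and Psmb6 (0.043) in STZ+MENS against STZ, and for Psmb11 (0.0033) and Psmb5 (-0.022) in STZ+MENS against control. With 1 sample left out, ranges that crossed 0 for STZ against control were -0.28 to 0.047 for Psme2, -0.13 to 0.0004 for Psme3, -0.14 to 0.41 for Psme4, -0.16 to 0.044 for Psmb10, -0.36 to 0.41 for Psmb8, -0.48 to 0.55 for Psmb9 and -0.50 to 0.95 for Psmb7. For STZ+MENS against STZ they were -0.21 to 0.012 for Psmf1 and -0.082 to 0.32 for Psmb10. For STZ+MENS against control they were -0.22 to 0.11 for Psme2, -0.14 to 0.26 for Psmb10, -0.35 to 0.17 for Psmb11 and -0.0084 to 0.014 for Psmb5. The labels used here do not state that same-numbered samples are paired, and the main fit did not pair them. Deviations of same-numbered samples correlated at -0.03, 0.005 and -0.07. With 2 samples a group, these values cannot exclude a pairing or a shared batch.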
